A study of Mus musculus with 6 samples.

Results

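The genes described here encode the machinery that releases transmitter from synaptic vesicles: Syp, Syn1, Syn2, Vamp1, Vamp2, Snap25, Stx1a, Syt1, Cplx1 and Cplx2. They were taken as a fixed set of 10 named genes, and every array probe set whose annotation gave exactly 1 symbol, that of a member, was kept whatever its value. They stand for 10 of the 18193 genes that such probe sets name, and for 27 of the 45037 probe sets that are not array controls; 1 further probe set that lists Vamp1 beside another gene was left out. The tissue was hippocampus of male DBA/2 mice, an inbred strain, housed singly. The mice took venlafaxine, an antidepressant that blocks serotonin and noradrenaline reuptake, with their drinking water over a month at 0 (control), 30 (low dose) or 100 (high dose) mg per kg per day, with 10 animals in each dose group. Total RNA was pooled within each dose group into 1 left and 1 right hippocampal pool, which gave 6 pools, read on 1 Affymetrix mouse array each. The labels give no age and do not state whether both pools of a dose group drew on the same brains, so every p-value measures the spread between pools only, which may be technical. Precision is limited by the small number of arrays.

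Dose, side and hybridization date are interlocked in this design. Control replicate 1 (right pool), both low dose arrays (replicate 1 right, replicate 2 left) and high dose replicate 1 (left) carry the first hybridization date in the labels. Control replicate 2 (left) and high dose replicate 2 (right) carry a later date. The RNA integrity number (RIN), a score of how intact the RNA is, was 8.7 and 7.9 for control replicates 1 and 2, 9.1 and 8.9 for the low dose and 8.5 and 8.2 for the high dose. Both later-date pools thus had the lowest RIN, and date and RIN cannot be told apart in the comparison of dates. The dose comparisons had no date or side term. Their spread therefore includes the side difference within every dose group and the date difference within control and high dose. Affymetrix arrays carry probe sets at the 3′ and 5′ ends of Actb and Gapdh. The Actb 3′ signal exceeded the 5′ signal by 1.5 and 1.38 log2 on the later-date arrays of control and high dose, and by 1.05 to 1.19 on the 4 first-date arrays. The Gapdh difference was 0.35 and 0.34 on the later date and 0.09 to 0.22 on the first. The tissue label was checked against hippocampal excitatory neuron markers such as Prox1 and Neurod6, and none of 11 lay below its array's median on every array (list means 10.17 to 10.46). Striatal and neocortical markers passed the same check (lowest list means 9.48 and 9.8), so it does not tell the hippocampus from neighbouring forebrain.

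Transmitter is stored in vesicles that dock at the presynaptic membrane and fuse with it when calcium enters. Fusion is driven by SNARE proteins, with synaptobrevins (Vamp1, Vamp2) on the vesicle and syntaxin 1A (Stx1a) and Snap25 on the plasma membrane, which zip into one bundle. Synaptotagmin 1 (Syt1) senses calcium, complexins (Cplx1, Cplx2) hold and then assist the bundle, synapsins (Syn1, Syn2) tether the reserve of vesicles, and synaptophysin (Syp) is an abundant vesicle membrane protein that binds synaptobrevin. In the hippocampus these proteins fill the terminals of excitatory and inhibitory neurons alike.

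The members were well expressed. Of the 27 probe sets, 24 lay above the array median on at least 2 arrays and were tested together with all such probe sets (23165 in all), and 22 lay above it on all 6 arrays. The 2 tested probe sets near that limit were Vamp2 1420833_at (above the median on 4 arrays) and Syn2 1458105_at (on 2). The 3 others stayed below the median on every array: a second Syp probe set (1456249_x_at, log2 level 7.53 to 7.73), a sixth Syn2 probe set (1440762_at, 7.20 to 7.28) and a second Vamp1 probe set (1421862_a_at, 7.36 to 7.57). Array medians lay at 7.79 to 7.80. In these names the endings _s_at and _x_at mark probe sets with probes that can also match other transcripts. All levels below are the deposited log2 values, in which a difference of 1 is a doubling, and levels of different probe sets are not comparable with each other. Fewer cells of a type and less RNA per cell cannot be told apart in these pooled samples.

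The promoters of members that moved together across the arrays, as described below, are shown with those of Cplx2, whose probe sets went in both directions. The windows run from 250 bases before to 50 bases after the annotated start, from RefSeq on GRCm38.p6, a C57BL/6J genome rather than DBA/2. They lie at chrX:7638330-7638629 (plus strand) for Syp, chrX:20920869-20921168 (minus strand) for Syn1, chr6:125215331-125215630 (plus strand) for Vamp1 and chr13:54302306-54302605 (plus strand) for Cplx2. Capitals mark motif letters found on either strand.
Syp: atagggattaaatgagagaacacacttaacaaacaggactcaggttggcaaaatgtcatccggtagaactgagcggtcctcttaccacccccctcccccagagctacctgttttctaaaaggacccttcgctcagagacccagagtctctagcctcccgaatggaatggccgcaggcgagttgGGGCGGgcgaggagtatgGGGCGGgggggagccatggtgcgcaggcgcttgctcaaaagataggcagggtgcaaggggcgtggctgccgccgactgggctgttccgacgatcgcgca
Syn1: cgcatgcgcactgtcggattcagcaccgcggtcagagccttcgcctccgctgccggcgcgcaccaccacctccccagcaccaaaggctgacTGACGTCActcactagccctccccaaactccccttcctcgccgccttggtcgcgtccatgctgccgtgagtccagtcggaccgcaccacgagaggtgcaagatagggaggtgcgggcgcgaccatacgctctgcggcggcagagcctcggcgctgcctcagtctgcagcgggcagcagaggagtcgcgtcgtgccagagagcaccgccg
Vamp1: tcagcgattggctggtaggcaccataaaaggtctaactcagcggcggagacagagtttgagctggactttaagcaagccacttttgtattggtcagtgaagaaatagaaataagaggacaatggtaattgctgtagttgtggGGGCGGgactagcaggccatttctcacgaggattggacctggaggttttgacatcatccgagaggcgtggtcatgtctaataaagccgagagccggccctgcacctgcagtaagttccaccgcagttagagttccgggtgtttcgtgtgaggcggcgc
Cplx2: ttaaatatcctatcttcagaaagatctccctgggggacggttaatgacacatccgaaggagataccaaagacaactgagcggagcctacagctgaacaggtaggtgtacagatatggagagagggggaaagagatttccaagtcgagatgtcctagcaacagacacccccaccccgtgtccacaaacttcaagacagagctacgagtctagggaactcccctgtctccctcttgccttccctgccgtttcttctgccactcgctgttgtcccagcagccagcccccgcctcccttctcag
The motifs searched were the GC box GGGCGG, the cyclic AMP response element TGACGTCA, the EGR site GCGGGGGCG and the TATA box TATAAA. An EGR site can overlap a GC box. The Syp window holds 2 GC boxes and that of Vamp1 holds 1, the Syn1 window holds 1 cyclic AMP response element, and the Cplx2 window holds none of these letters. Windows were found for 8 of the 10 members (10 windows; no entry for Vamp2 and Snap25). A GC box occurs in the windows of 6 of the 8, and in 35.7% of all 32851 RefSeq windows of that length. The cyclic AMP response element occurs in 1 of the 8 (1.79% of all windows), the EGR site in 2 (2.91%) and the TATA box in none (13.6%). Member counts are of genes with the motif in any of their windows, while the percentages are of windows, so the measures are unlike.

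**Figure D1:**
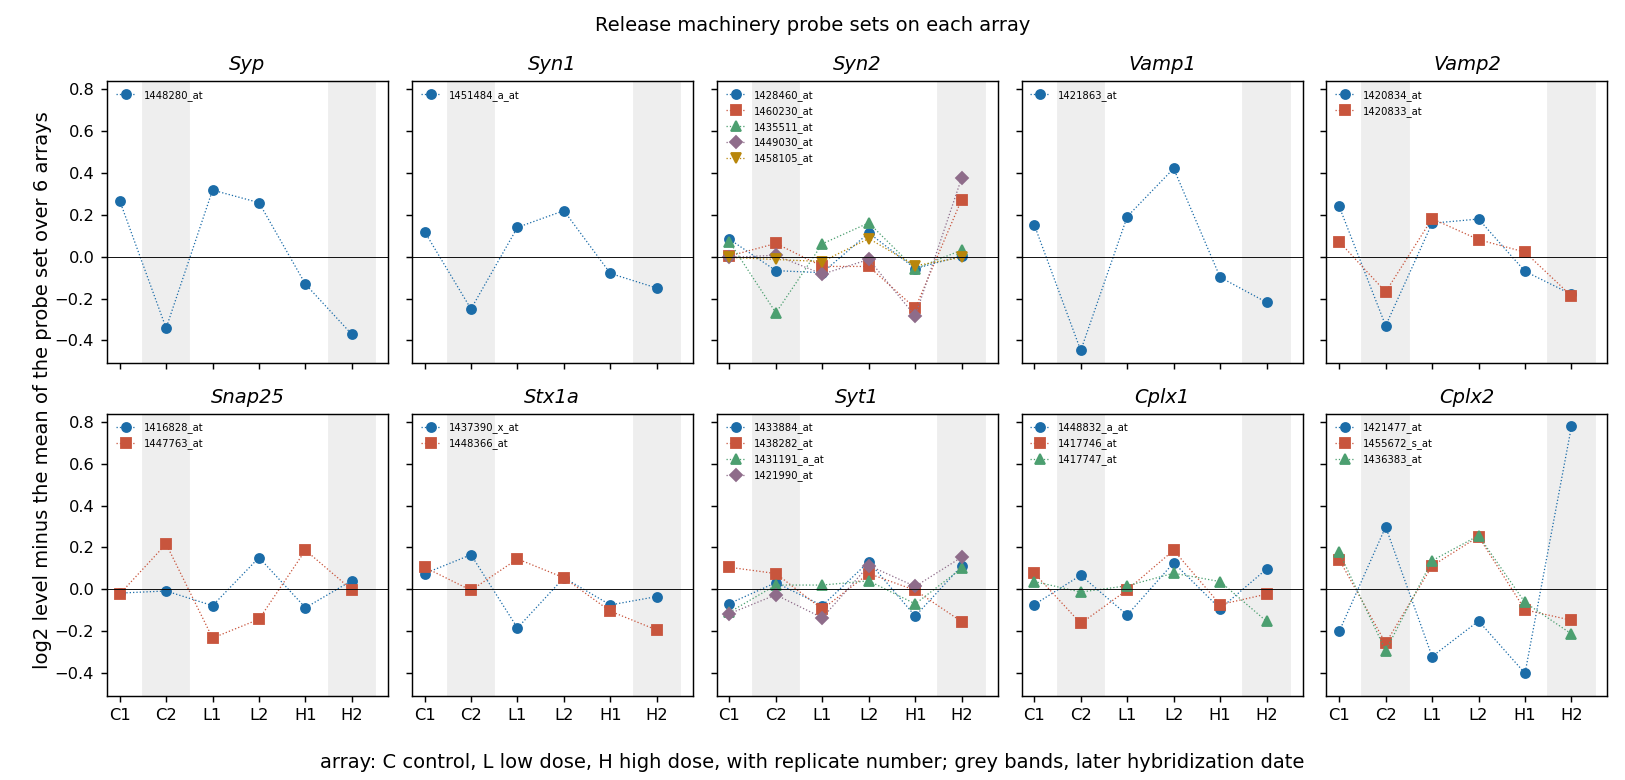
Log2 level of each of the 24 tested probe sets on each array, as the difference from that probe set's own mean over 6 arrays, with 1 panel per gene; C, L and H stand for control, low and high dose with the replicate number, and grey bands mark the later hybridization date. Syp, Syn1, Vamp1 and Vamp2 dip on both grey bands, Cplx2 1421477_at peaks there, and Snap25, Syt1 and Cplx1 stay within 0.25 of their means.

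The first question was whether the highest dose differed from no drug, and no member did so at the threshold. Of the 24 tested probe sets 0 passed an adjusted p of 0.05 (limma with Benjamini-Hochberg adjustment over all probe sets, two-sided), with a background of 0% over the whole array, and 0 of 24 had an unadjusted p under 0.05 (553 of 23165 overall). Differences of high dose from control ran from -0.21 for Syp to 0.15 for Syt1 1421990_at, with 7 above and 17 below 0. Their median was -0.018, against -0.031 for all tested probe sets. Without high dose replicate 1, which leaves the later-date array alone at that dose, the count of calls was 1, Cplx2 1421477_at at 0.73, which carries its date values and is a description.

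Stx1a, the plasma membrane syntaxin, was the 1 member whose tested probe sets both had high dose arrays apart from the controls. The 1448366_at level was 9.08 and 8.97 in the controls, 9.12 and 9.03 at the low dose, and 8.87 and 8.78 at the high dose. The second probe set, 1437390_x_at, read 12.01 and 12.10 in the controls, 11.75 and 11.99 at the low dose, and 11.86 and 11.90 at the high dose. In both, each high dose array was lower than each control array, and on 1448366_at they also lay below both low dose arrays. The difference of high dose from control was -0.20 (SE 0.095, 95% interval -0.41 to 0.011, adjusted p = 1.0) for 1448366_at. For 1437390_x_at it was -0.18 (SE 0.10, interval -0.41 to 0.048, adjusted p = 1.0). Within the hybridization dates 1448366_at differed by -0.21 (first) and -0.19 (later), and 1437390_x_at by -0.16 and -0.21. Groups that do not overlap are common here: 25.5% of all probe sets, 18.2% with the high dose lower and 7.3% with it higher. Among the members there were 4 of 24, the other two being Syt1 1438282_at (-0.17) and Syt1 1421990_at (0.15), which point in opposite directions for 1 gene.

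Few members kept 1 direction on both dates. High dose lay below control in 20 of 24 probe sets among first-date arrays and in 7 of 24 among later-date arrays, where all tested probe sets gave 75.5% and 44%. The sign differed between dates in 17 of 24, against 50.3% of all. The median difference over the members was -0.15 for the first and 0.078 for the later date, beside -0.08 and 0.016 for all. Syp had first-date and later-date values of -0.40 and -0.03, and Syn2 1449030_at -0.29 and 0.36. No p-value attaches to these single pairs of arrays, which also differ in side.

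The second question was what the lower dose did, and again 0 of 24 probe sets passed (background 0%, adjusted p = 1.0 for each). There were 18 differences above and 6 below 0, with a median of 0.048 against 0.027 for all probe sets and a range from -0.28 to 0.45. An unadjusted p under 0.05 was reached by 2 of 24, where the whole array had 594. Groups did not overlap in 7 of 24, where 25.9% of all probe sets did not: Syn1, Vamp1 and Vamp2 1420833_at with the low dose higher (13.4% of all probe sets), and Syn2 1449030_at, Syn2 1460230_at, Snap25 1447763_at and Stx1a 1437390_x_at with it lower (12.4%).

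Vamp1, a synaptobrevin best known from motor terminals, had the largest of these differences. Its level was 9.69 and 9.09 in the controls, 9.73 and 9.96 at the low dose and 9.44 and 9.32 at the high dose. The low dose arrays were the 2 highest, and control replicate 2 the lowest. The difference of low dose from control was 0.45 (SE 0.17, 95% interval 0.075 to 0.82, adjusted p = 1.0). It passed only with the replicate number as a block (adjusted p = 0.0419), a number that marks the date for control and high dose but not for the low dose. With the date as a block it was 0.27 (adjusted p = 0.785), and against the control array of the first date alone 0.15.

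Syp too had its highest mean at the low dose, but its low dose arrays overlapped the controls. Its level was 10.81 and 10.20 in the controls, 10.86 and 10.80 at the low dose and 10.41 and 10.17 at the high dose. The low dose lay 0.33 above the controls (interval -0.04 to 0.70) but 0.03 above the first-date control. Snap25 1447763_at went the other way, at 9.70 and 9.94 in the controls, 9.49 and 9.58 at the low dose and 9.91 and 9.72 at the high dose. The low dose arrays were the lowest there, with a difference of -0.28 from the controls (interval -0.53 to -0.038, adjusted p = 1.0). The brighter Snap25 probe set, 1416828_at, did not show this: it read 14.42 and 14.43, then 14.36 and 14.59, then 14.35 and 14.48, a difference of 0.047 (interval -0.18 to 0.28). All 10 oligodendrocyte markers (median 0.316, all genes 0.038) and all 8 choroid plexus markers (median 0.244) also had higher means at the low dose, with 0 past the threshold; their part in the Syp and Vamp1 values was not tested.

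Between the doses, high dose against low dose gave the widest spread and again 0 of 24 calls (background 0%, adjusted p from 0.921 to 0.999). An unadjusted p under 0.05 was reached by 7 of 24 (864 of 23165 overall): Syp (-0.54, SE 0.17, interval -0.91 to -0.17), Vamp1 (-0.46), Cplx2 1436383_at (-0.33), Cplx2 1455672_s_at (-0.31), Syn1 (-0.29), Snap25 1447763_at (0.28) and Stx1a 1448366_at (-0.25). Groups did not overlap in 11 of 24 (38.7% of all), 10 with the high dose lower (33.5% of all probe sets) and 1 with it higher (5.2%). The median was -0.067 against -0.056 for all. Both low dose arrays are of the first date and had the highest RIN, while 1 high dose array is of the later date. With the date as a block the Syp difference was -0.33 (adjusted p = 0.535) and that of Vamp1 -0.28 (1.0); with RIN as a covariate they were -0.07 and -0.06 (1.0 each). With the replicate block they passed, Syp at an adjusted p of 0.00508 and Vamp1 at 0.0453. Without high dose replicate 1, Syp (-0.66, adjusted p = 0.00127) and Vamp1 (-0.52, 0.0216) passed, when the high dose was represented by its later-date array alone; Cplx2 1421477_at then stood at 1.02, a description as above. All 10 oligodendrocyte markers had lower means at the high than at the low dose (median -0.343, all genes -0.066), with 0 past the threshold. The 3 dose comparisons share their arrays and are not independent of each other.

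**Figure D2:**
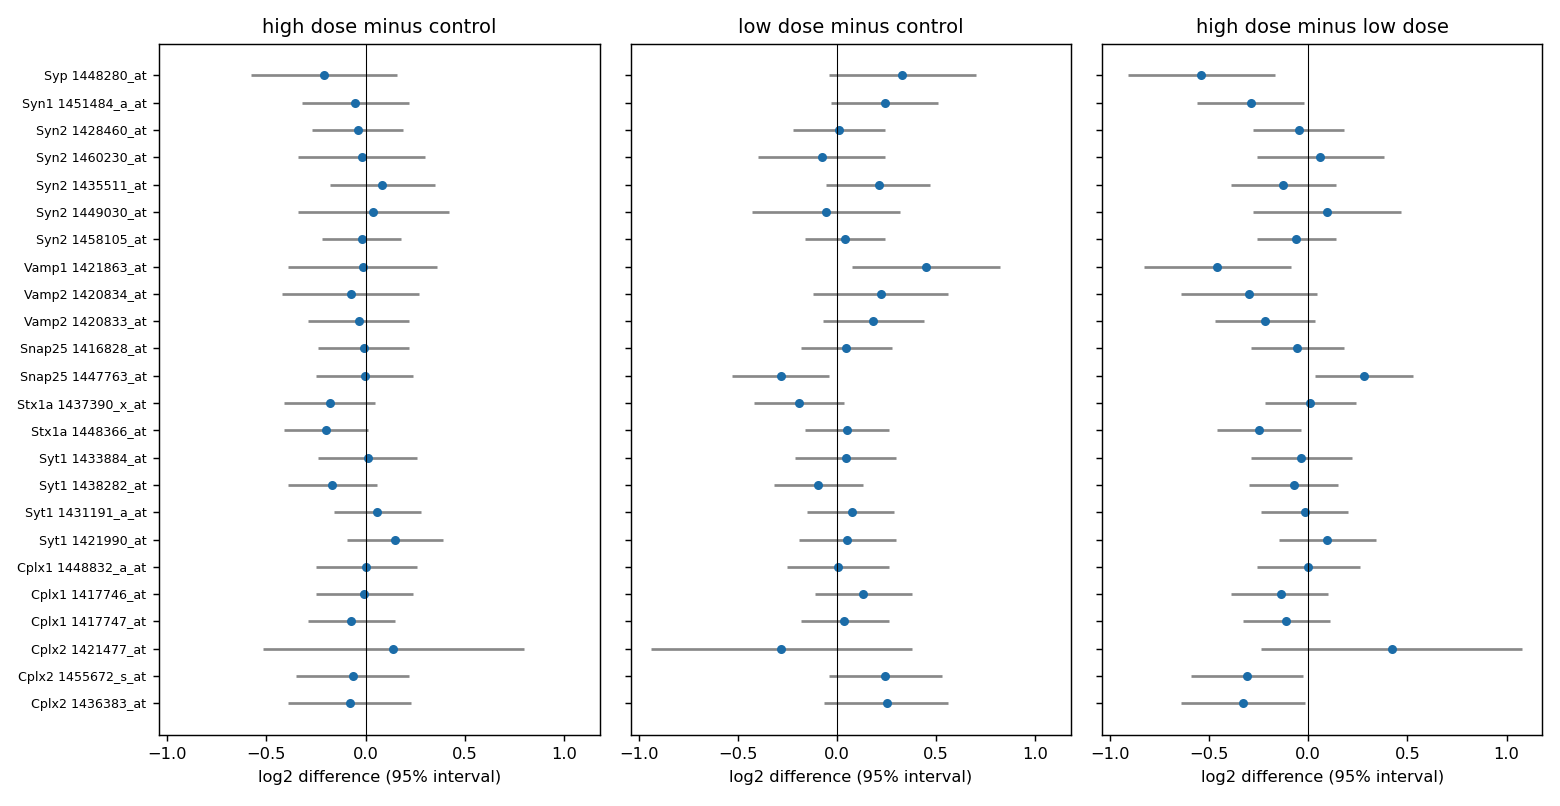
Log2 difference between dose groups for the 24 tested probe sets, with 2 arrays per group; points are limma estimates, bars their 95% intervals, and the vertical line marks 0. No probe set passed after adjustment in any panel; the widest bars belong to Cplx2 1421477_at, and the intervals that leave out 0 are those of Vamp1 and Snap25 1447763_at in the middle panel and of 7 probe sets in the right panel.

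Hybridization date was examined as a technical term beside dose. The contrast of the later with the first date was fitted within dose groups, so that only control and high dose arrays bear on it. Cplx2 entered this set with its date pattern known, so its date values are given as a description. That other members followed the date was known too, so the counts and p-values below describe these arrays and are not independent evidence of a date pattern. Of the 21 other probe sets, 5 passed (23.8%), where 11.5% of all probe sets passed; 3 fell on the later date (7.24% of all) and 2 rose (4.28%). All probe sets shared a single estimate of the spread in this fit, with an SE of 0.093 for each. Against all 4 first-date arrays, both later-date arrays lay lower in 8 of 24 and higher in 3 of 24 probe sets, compared with 28.8% and 9.83% of all (38.6% in either direction).

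Syp, Vamp1 and the brighter Vamp2 probe set fell on the later date. Syp was 10.81 and 10.20 on the first-date and later-date control arrays, 10.41 and 10.17 on those of the high dose, and 10.86 and 10.80 on the low dose arrays of the first date. Both later-date arrays lay below the 4 others. The date difference was -0.42 (adjusted p = 0.000248), made up of -0.60 in the controls and -0.23 at the high dose. Vamp1 fell by 0.36 (adjusted p = 0.00204), with -0.60 in the controls and -0.13 at the high dose. Vamp2, the main synaptobrevin of forebrain terminals, read 12.33 and 11.76 in the controls, 12.25 and 12.27 at the low dose and 12.02 and 11.91 at the high dose on probe set 1420834_at. It fell by 0.34 (adjusted p = 0.00479), again mostly in the controls (-0.57, against -0.11 at the high dose). The dim Vamp2 probe set 1420833_at, above the array median on 4 arrays, went the same way (7.98 and 7.74, then 8.09 and 7.99, then 7.93 and 7.72) with a difference of -0.22 that missed the threshold (adjusted p = 0.102). With either control array left out the date contrast rests on the high dose pair, and the calls for Syp (-0.23, adjusted p = 0.404), Vamp1 (-0.13, 0.821) and Vamp2 (-0.11, 0.874) were lost.

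The synapsins split. Syn1, with 10.32 and 9.95 in the controls, 10.34 and 10.42 at the low dose and 10.12 and 10.05 at the high dose, lay lower on both later-date arrays but missed the threshold (-0.22, adjusted p = 0.103). It passed with either high dose array left out (-0.37, adjusted p = 0.0421). Syn2 was measured by 5 usable probe sets, and they disagreed. Probe set 1449030_at was 10.06 and 10.07 in the controls, 9.98 and 10.05 at the low dose, and 9.78 and 10.44 at the high dose. It rose by 0.34 on the later date (adjusted p = 0.00527), but the rise was 0.66 at the high dose and 0.01 in the controls. Probe set 1460230_at rose by 0.29 (adjusted p = 0.021), with 0.52 at the high dose and 0.06 in the controls. Both calls were lost with either high dose array left out (0.01 and 0.06). Probe set 1435511_at, built on an expressed sequence tag, was 11.12 and 10.78 in the controls and 10.99 and 11.08 at the high dose and did not pass (-0.13, adjusted p = 0.442). Probe sets 1428460_at (-0.043) and 1458105_at (0.014, dim) did not pass either.

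Cplx2 showed the widest split within a gene. Probe set 1421477_at, built on a RefSeq mRNA record, read 12.07 and 12.57 in the controls, 11.95 and 12.12 at the low dose, and 11.87 and 13.05 at the high dose. Probe set 1455672_s_at read 12.13 and 11.73, then 12.10 and 12.24, then 11.89 and 11.84, and probe set 1436383_at 10.50 and 10.03, then 10.46 and 10.58, then 10.26 and 10.11. The first was highest on both later-date arrays, whereas the other two, built on expressed sequence tags, were lowest there. The date differences were 0.85 (1.8-fold) for the first, and -0.23 and -0.31 for the others. The level of 1421477_at minus that of 1455672_s_at was -0.15 to -0.03 on the 4 first-date arrays, and 0.84 and 1.22 on the later-date arrays of control and high dose. The level of 1455672_s_at minus that of 1436383_at stayed between 1.62 and 1.72 on all 6 arrays. Which stretch of the transcript each probe set reads was not examined here, and the part of RNA integrity in this split was not tested. Cplx2 is the main complexin of excitatory hippocampal neurons, and the direction of its date difference depended on the probe set read.

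**Figure D3:**
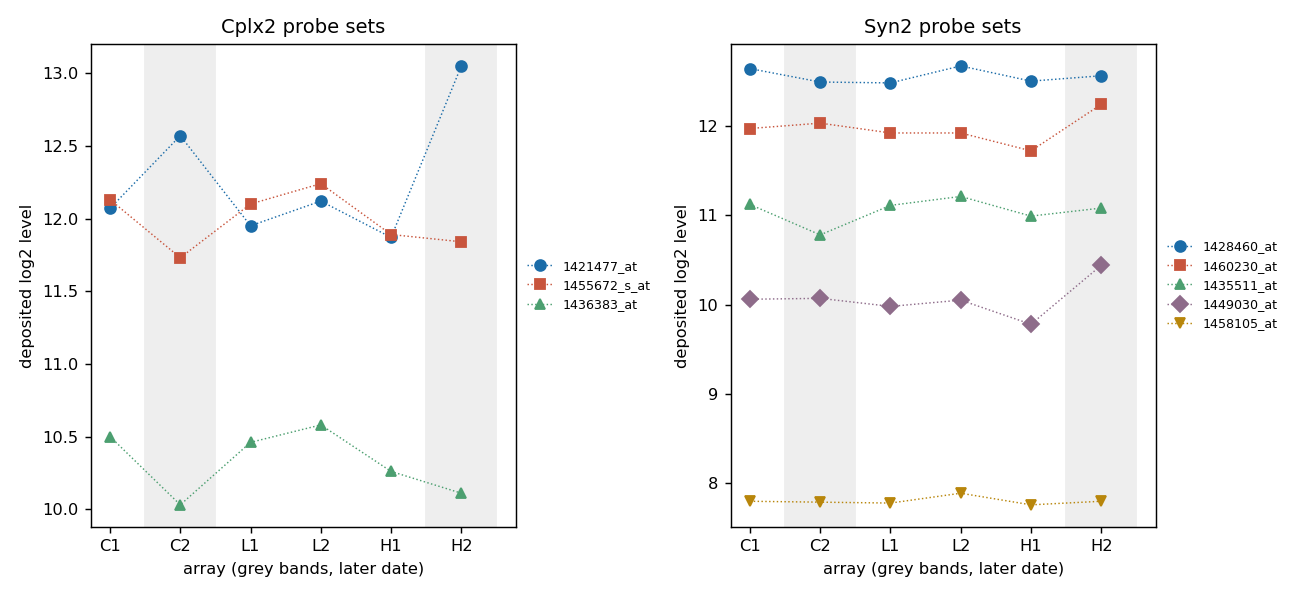
Deposited log2 level of each Cplx2 probe set (left) and each usable Syn2 probe set (right) on the 6 arrays, labelled C, L and H for control, low and high dose with the replicate number; grey bands mark the later hybridization date. Cplx2 1421477_at reaches 12.57 and 13.05 on the grey bands and is at most 12.12 elsewhere, while the other two Cplx2 probe sets are at their lowest there; Syn2 1460230_at and 1449030_at peak on H2.

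The plasma membrane SNAREs, the calcium sensor and the other complexin gave no call by date. Snap25 differed by 0.066 and 0.021 and Stx1a by 0.065 and -0.099 on their probe sets. Syt1 was read by 4 probe sets, with differences of 0.17 (1433884_at), 0.15 (1431191_a_at), 0.12 (1421990_at) and -0.091 (1438282_at). The brightest of these, 1433884_at, was 14.00 and 14.10 in the controls, 13.99 and 14.20 at the low dose and 13.94 and 14.18 at the high dose. Cplx1, the other complexin, had 0.17 (1448832_a_at), -0.097 (1417746_at) and -0.12 (1417747_at). The brightest Cplx1 probe set was 13.56 and 13.70 in the controls, 13.51 and 13.76 at the low dose and 13.54 and 13.73 at the high dose. In Syt1 1433884_at and Cplx1 1448832_a_at, replicate 2 was above replicate 1 in every dose group, including the low dose, where both arrays share the first date. Adjusted p for these 11 probe sets ran up to 0.936, and the smallest was 0.248 for Syt1 1433884_at.

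**Figure D4:**
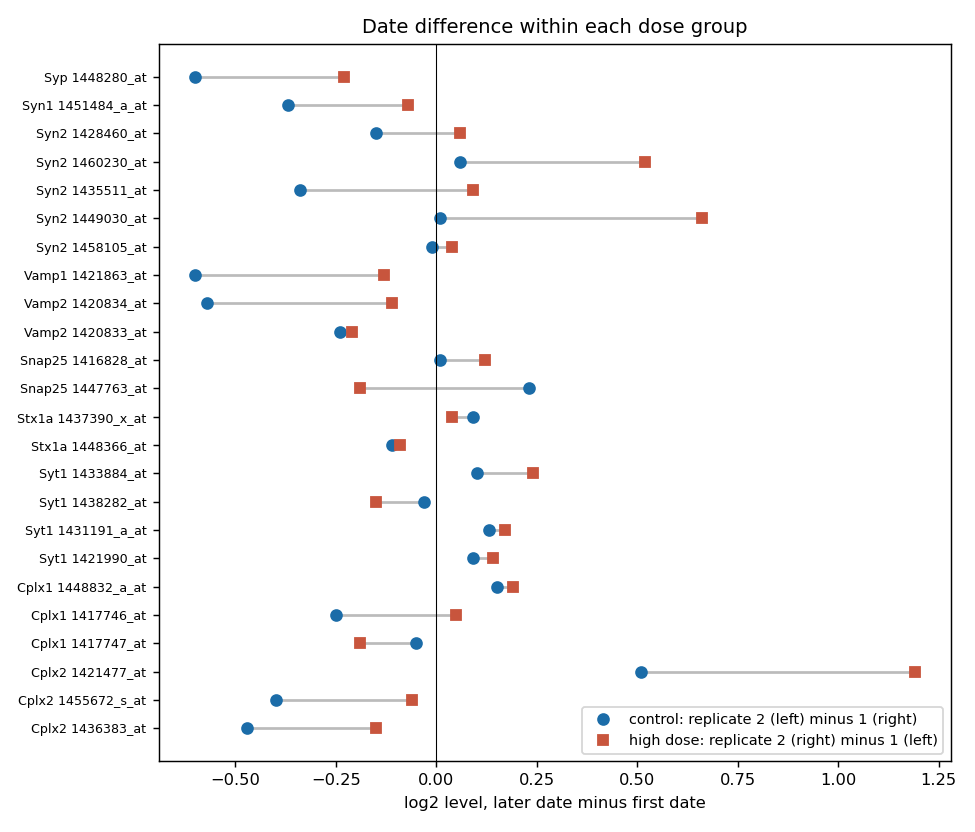
Log2 level on the later-date array minus that on the first-date array, within the controls (circles) and within the high dose group (squares), for the 24 tested probe sets; each point is the difference of 2 arrays, and the brain side runs opposite ways in the 2 groups. Syp, Vamp1 and Vamp2 1420834_at lie furthest left in the controls, at -0.60 to -0.57, and Cplx2 1421477_at lies furthest right in both groups.

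For 1 member the date difference itself differed between control and high dose. The high dose difference minus the control difference, a contrast added after the values had been seen, was 0.65 for Syn2 1449030_at (SE 0.18, adjusted p = 0.0435), the 1 member of 21 that passed, while 0.501% of all probe sets passed. Syn2 1460230_at (0.46, adjusted p = 0.385), Vamp1 (0.48, 0.341) and Vamp2 1420834_at (0.46, 0.383) did not pass. Cplx2 1421477_at had 0.68, as a description. The SE and p-values here use a spread that came only from the low dose pair, with a single estimate shared by all probe sets. Side was reversed between these pairs, with the later array a left pool in the controls and a right pool at the high dose. RIN went from 8.7 to 7.9 in the controls and from 8.5 to 8.2 at the high dose. Differences between doses, between sides and in RIN therefore cannot be told apart in this contrast. In the low dose pair, where both sides share a date, left exceeded right by 0.07 for Syn2 1449030_at and by 0.17 for Cplx2 1421477_at.

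Left and right pools were compared within dose groups, and 0 of 24 probe sets passed (background 0%; adjusted p = 1.0 for each), with 0 of 24 at an unadjusted p under 0.05 against 100 of 23165 overall. Differences of left from right ran from -0.19 (Syn2 1449030_at) to 0.17 (Snap25 1447763_at), with a median of -0.036 against -0.007 for all. No member had left and right arrays that did not overlap, which 2.84% of all probe sets did. With RIN as a covariate Syn2 1449030_at passed (-0.33, adjusted p = 0.0356), but not with the date as a block (-0.19, 1.0) or with the replicate block (-0.31, 0.746). Cplx2 1421477_at stood at -0.52, -0.17 and -0.43 in these fits, as a description.

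Levels of some members also followed RIN, a relation examined after the values had been seen. The slopes were fitted with no dose term, and both low dose arrays had the highest RIN. A slope therefore also carries any difference at the low dose. Members were chosen with date patterns known, and the later-date arrays had the lowest RIN. The counts and p-values below thus describe these arrays and are not independent evidence of a relation with RIN. Over the 6 arrays, 5 of 21 probe sets outside Cplx2 rose with RIN (23.8%), where 4.28% of all probe sets changed with it and 3.41% rose. The slopes per RIN unit were 0.67 for Syp (SE 0.10, adjusted p = 0.0066), 0.65 for Vamp1 (0.00802), 0.47 for Vamp2 1420834_at (0.0176), 0.39 for Syn1 (0.0237) and 0.32 for Vamp2 1420833_at (0.042). For Syp the 3 arrays with the lowest RIN were the 3 lowest, at 10.20, 10.17 and 10.41, and the array with the highest RIN was the highest at 10.86. With the date as a block 0 passed and the slopes were 0.54, 0.59, 0.36, 0.36 and 0.19 in the same order. On the 4 first-date arrays alone they were 0.68, 0.55, 0.32, 0.37 and 0.25, and 0 passed (adjusted p = 1.0). All 5 calls were also lost when control replicate 2 was left out (slope of Syp 0.82, adjusted p = 0.0765) and when low dose replicate 2 was (0.65, 0.0961). Cplx2 had slopes of -0.71 for 1421477_at, 0.40 for 1455672_s_at and 0.46 for 1436383_at, as a description.

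**Figure D5:**
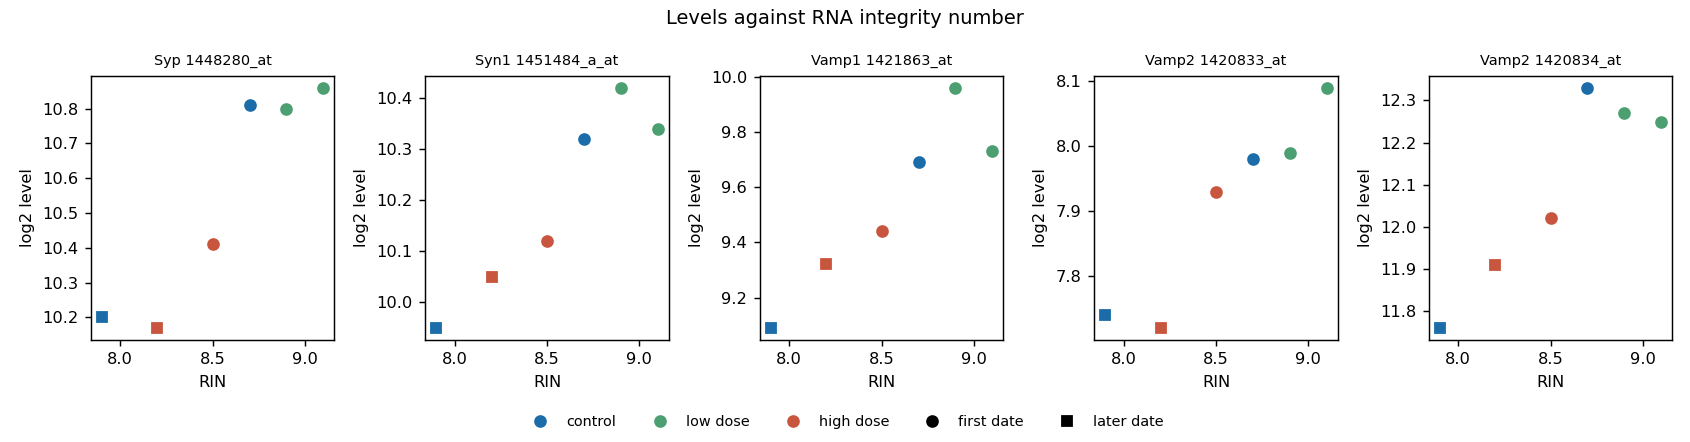
Deposited log2 level against RNA integrity number for the 5 probe sets whose slope passed the threshold, 1 point per array; colour gives the dose group, circles the first and squares the later hybridization date, and each panel has its own vertical scale that does not start at 0. Levels lie lowest for the squares at RIN 7.9 and 8.2 and highest among the arrays of RIN 8.7 to 9.1.

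Some probe sets of members with different roles followed each other across the arrays, and others did not. The high values below were picked as such, and the share of such pairs over all probe sets was not worked out. Syp, Syn1, Vamp1, Vamp2 1420834_at, Cplx2 1455672_s_at and Cplx2 1436383_at had pairwise Pearson correlations of 0.91 to 0.99 over the 6 arrays. Syn2 1460230_at and 1449030_at correlated at 0.98 with each other and at 0.92 and 0.90 with Cplx2 1421477_at. Syt1 1433884_at and Cplx1 1448832_a_at correlated at 0.96. Syp, by contrast, correlated at 0.06 with Snap25 1416828_at, at -0.76 with Snap25 1447763_at and at -0.73 with Cplx2 1421477_at. These values describe 6 arrays that share dates, sides and RIN and carry no p-value. The mean profile of the 10 members, each by its brightest probe set, ran from -0.12 on high dose replicate 1 to 0.15 on low dose replicate 2. For Cplx2 that was 1421477_at, which went against its other probe sets on the later date. The genes most like it over the 6 arrays were Tmx2 (r = 0.996), Dcaf7 (0.995), Ctdnep1 (0.994), Cd164 (0.994) and Srp72 (0.993), none of which belongs to the lists of vesicle and release genes used here.

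The wider release pathway was read from 5 lists of 101 other genes (SNARE partners, other synaptotagmins and complexins, the active zone, other vesicle proteins, and vesicle recycling), of which 89 were tested, each by its brightest probe set. No gene passed in any dose comparison. High dose against control had 27 above and 62 below 0 with a median of -0.05 (-0.03 for all genes); low dose against control 64 and 25 with 0.066 (0.038); high against low dose 13 and 76 with -0.101 (-0.066). At the high dose Doc2b, a calcium sensor of spontaneous release, was at -0.29 and Slc17a6, a vesicular glutamate transporter, at -0.27 against control, and the clathrin adaptor subunit gene Ap2b1 at 0.23 and Stx12 at 0.09. At the low dose Ap2m1, another adaptor subunit gene, was at 0.35 and Syt5 at 0.31, and Cplx3 at -0.31 and Lin7a at -0.17. Between the doses Doc2b was at -0.50 and Syt5 at -0.42, with Cplx3 at 0.15 and Rab3gap1 at 0.12.

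The lists were chosen with earlier results of these data known. The date and RIN counts and p-values below thus describe these arrays and are not independent evidence of such patterns. Each of the 89 genes is read by 1 probe set, while the shares are over all tested probe sets. By date 14 of the 89 passed (11.5% of all probe sets did), 12 lower and 2 higher, with a median of -0.088 against -0.057 for all genes. Those that fell were Rph3a, a Rab3 effector (10.29 and 9.66 in the controls, 10.28 and 10.25 at the low dose, 10.06 and 9.69 at the high dose; -0.50, adjusted p = 5.16e-06), Syt16 (-0.48), Syt5 (-0.40), Ppfia2 (-0.35), Doc2b (-0.35), Slc17a7, the vesicular glutamate transporter of most hippocampal excitatory neurons (-0.32), Syngr3 (-0.29), Synpr (-0.29), Syngr1 (-0.28), Rab3b (-0.28), Bsn, which encodes an active zone scaffold (-0.27), and Syt3 (-0.26). Those that rose were Ap2b1 (0.28) and Snap47 (0.30). By list the counts were 5 of 15 lower among synaptotagmins, complexins and calcium sensors, 4 of 19 lower among other vesicle proteins, 3 of 16 lower in the active zone, 1 of 18 higher among SNARE partners and 1 of 21 higher in recycling. With RIN, 8 of the 89 rose, where 3.41% of all probe sets rose and 4.28% changed in either direction. They were Rph3a (0.62 per unit), Syt5 (0.57), Doc2b (0.54), Ap2m1 (0.48), Rab3b (0.39), Syt3 (0.36), Syngr1 (0.34) and Napa, which encodes a SNARE-recycling adaptor (0.31). The lowest slopes were those of Snap47 (-0.23) and Rab3gap1 (-0.22), which did not pass. These RIN slopes were likewise fitted with no dose term. By side 0 of 89 passed, with values from -0.13 for Doc2b and Sv2a to 0.16 for Cplx3 and 0.19 for Ap2b1.

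Values of cell type markers are given beside those of the members, and their part in them was not tested. The marker lists too were chosen with earlier results of these data known, so their counts describe these arrays. By date 11.5% of all probe sets passed. Of 10 neuron-wide genes such as Map2 and Tubb3, 1 fell on the later date (Snhg11, -0.41), with a list median of -0.059 and mean levels of 12.41 to 12.63 on the 6 arrays. Of 11 hippocampal excitatory neuron markers 2 fell and 1 rose (median -0.151; mean levels 10.17 on control replicate 2 and 10.34 to 10.46 on the others). Of 10 oligodendrocyte markers 4 fell (median -0.201; mean levels 11.38 and 11.31 on the later-date arrays of control and high dose, 11.57 to 11.80 on the others). Of 9 interneuron markers 1 fell (median -0.182), of 6 striatal markers 2 fell (0.004) and of 8 neocortical markers 1 fell (-0.044). Of 8 choroid plexus markers 1 rose (median 0.124) and of 7 meningeal markers 1 rose (-0.046), while among 8 astrocyte (-0.063) and 7 microglia markers (-0.157) 1 rose and 1 fell in each. With RIN, where 4.28% of all probe sets passed, 6 of 10 oligodendrocyte markers rose (median slope 0.383, all genes 0.08), as did 2 hippocampal excitatory and 1 interneuron marker, and 1 meningeal and 1 neocortical marker fell. These slopes too were fitted with no dose term. Over all probe sets the count of RIN calls was 992, with 1 to 521 under other settings and 4 to 2485 with 1 array left out. No marker passed in any dose comparison. At the high dose against control all 6 striatal (median -0.326) and all 8 neocortical markers (-0.249) had lower means, and all 8 choroid plexus (0.193) and all 7 meningeal markers (0.246) higher ones. Of the marker genes measured, Col1a1 alone lay below the array median on every array.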

How the data were processed

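The authors deposited log2 expression values for 6 arrays of 45101 probe sets each. They used RMA in R 3.0.1, per the submitters' processing notes. RMA subtracts background, normalizes between arrays and summarises the probes of a set; which options were set is not given in the sources used here. Deposited log2 values run from 6.10 to 15.31, with array medians of 7.79 to 7.80 and 95th percentiles of 11.46 to 11.65. No pair of arrays held identical values. Of 45037 probe sets that are not controls, 34945 had 1 gene symbol (34741 named by Entrez identifier), 932 several and 9160 none. The 23165 that exceeded the array median on 2 or more arrays entered limma 3.58.1 in R 4.3.3 (lmFit, eBayes, two-sided, Benjamini-Hochberg adjustment, threshold 0.05), with 1 coefficient per dose group, and dose group as a term for date and side. The dose, date and side fits were tested on simulated data. The RIN slope was fitted with no dose term. The contrast of date differences between dose groups gave each control and high dose array its own coefficient.

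The members and all lists were chosen with earlier results of these data known. The named genes are every member probe set, every pathway gene past the threshold, otherwise the 2 highest and 2 lowest per comparison, and the 5 genes most correlated with the members' mean profile. Alternatives covered the filter, the variance prior, scaling, probe set choice, replicate, date, side, RIN and each array left out. Replicate 2 minus replicate 1 correlated at 0.594 between control and high dose, where the labels make the number equal to the hybridization date, at 0.018 between control and low dose, and at -0.015 between low and high dose. The number therefore pairs the control and high dose arrays by date, and not the low dose arrays. No genome build is named for the arrays, so no position is given for their probe sets or genes; the promoter windows carry RefSeq's own coordinates on GRCm38.p6.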

Additional observations from a re-analysis of the deposited data

Results flagged for a closer look

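The difference between hybridization dates was compared between control and high dose, and 1 of the 21 member probe sets other than those of Cplx2 passed, as did 0.501% of all. For Syn2 1449030_at the later-date array exceeded the first-date array by 0.66 log2 at the high dose and by 0.01 in the controls, a difference of 0.65 (SE 0.18; adjusted p = 0.0435 by limma, Benjamini-Hochberg). For Cplx2 1421477_at the differences were 1.19 and 0.51, which gives 0.68; Cplx2 was chosen with its date pattern known, so this value is a description with no test. Both values come from a contrast that was added after the values had been seen, and each rests on 4 arrays. The SE and adjusted p use a spread that came only from the low dose pair, with a single estimate shared by all probe sets. Side ran opposite ways in the 2 dose groups. RIN went from 8.7 to 7.9 in the controls and from 8.5 to 8.2 at the high dose. Neither side nor RIN can be told apart from dose in these values. No group held enough arrays for a check of single outlying arrays.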

How the results depend on the processing

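Over the alternatives tried, 1801 values of single probe sets kept their direction and side of the threshold, 16 gained a call, 36 lost one, 208 moved without a call and none that passed reversed. The count of members past the threshold went from 0 to 1 for low dose against control and to 2 for high against low dose with the replicate block, from 0 to 2 for side with RIN as a covariate, from 5 to 3 of 9 for date with 1 probe set per gene, and from 5 to 0 for RIN with the date as a block and on the first-date arrays. The replicate block changed no other member call. The 2 for side include Cplx2 1421477_at (-0.52), and so do the 3 given below for high against low dose (1.02). Both values are a description. With 1 array left out the counts ran from 0 to 1 at the high dose against control (Cplx2 1421477_at at 0.73 without high dose replicate 1, a description), 0 to 3 for high against low dose, 2 to 5 for date and 0 to 6 for RIN, and were 0 throughout for low dose and side; an arm with a lone array is assumed to vary like the others. By date, Syn2 1460230_at lost its call with trend and robust settings (adjusted p = 0.105) and with side as a term (0.0591), and Vamp2 1420834_at after quantile normalization (0.059). There Vamp2 1420833_at (0.0308) and Syt1 1431191_a_at (0.0385) passed, and Vamp2 1420833_at also did with trend and robust settings (0.0244). On the first-date arrays the median over the members was -0.15 (high dose against control), -0.162 (high against low dose), 0.119 (left against right, where no test is possible) and 0.195 (RIN). It was 0.207 for RIN with the date as a block and 0.011 by date with 1 probe set per gene. Without 1 array it ran from -0.104 to 0.013, -0.004 to 0.132, -0.162 to -0.005, -0.067 to 0.039, -0.088 to 0.06 and -0.001 to 0.122 for high dose and low dose against control, high against low dose, date, side and RIN. Over all probe sets the count of calls was 2669 by date and 818 to 3252 under other settings. It was 0 in each dose comparison and by side. Apart from fits with 1 array left out, other settings gave at most 100 calls for low dose against control, 68 for high against low dose and 316 for side. On the first-date arrays high dose against control sets 1 left array against 1 right array. The spread there comes from the low dose pair alone, so no count is given for that fit. Except where the arrays left out show it, the cause of these changes was not tested.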
